A study of Mus musculus with 8 samples.

Results

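Hnf4a, Foxa1, Foxa2, Foxa3, Cebpa, Cebpb, Nr5a2 and Onecut1 encode 8 transcription factors that give liver cells their identity. The genes were chosen by name, and every probe whose accession belongs to one of them was taken. This gave 10 probes of 39429 on the array and 8 of 21612 genes with a matched probe, because Foxa2 and Nr5a2 have 2 probes each. All 10 probes were well above background on all 8 arrays, and none was marked as an outlier or saturated. RNA came from AML12, a mouse hepatocyte line from ATCC that was grown in DMEM F-12 medium with 10% fetal bovine serum in both groups. The 4 control samples were kept without irisin, and the 4 irisin samples received 0.5 µg/ml irisin, the peptide cleaved from Fndc5, for 24 h. RNA of every sample carried the dye Cy3 and was put on its own one-color Agilent array, and the comparison asks which genes irisin changed in these cells. As background, AML12 was established from hepatocytes of mice transgenic for human TGF-α, so both groups carry that transgene and represent 1 line. The 4 control arrays were on slide 1 and in scan 1, and the 4 irisin arrays were on slide 2 and in scan 2. Slide, scan and treatment therefore cannot be told apart in any difference below. The sources used here do not say that the samples of a group were separate cultures, so the p-values measure the spread between these samples, which may be technical.

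As background, no single factor makes a hepatocyte. A small set of factors binds the regulatory regions of liver genes together and also binds the genes of the other members, so that each helps to keep the rest switched on. FOXA proteins open closed chromatin, and HNF4A, NR5A2, the C/EBP proteins and ONECUT1 then act with them on genes for plasma proteins, glucose and bile acid metabolism. In cultured liver cells this network often weakens, and albumin and other liver products fall with it.

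Promoter letters are shown here because members of this network bind each other's genes. RefSeq promoter windows were found for all 8 genes, 12 windows in all, each read over the 250 bases before a transcription start on GRCm38.p6. In each, a script searched both strands for CAAAGTCCA (HNF4A), TGTTTAC (FOXA), TTGCGCAA (C/EBP), TCAAGGTCA (NR5A2) and ATTGATT (ONECUT). None of these motifs lies inside another. In the 3 windows below, printed 5′ to 3′ on the strand of the gene, capitals mark the letters found.
Hnf4a, upstream start, chr2:163506607-163506856, plus strand: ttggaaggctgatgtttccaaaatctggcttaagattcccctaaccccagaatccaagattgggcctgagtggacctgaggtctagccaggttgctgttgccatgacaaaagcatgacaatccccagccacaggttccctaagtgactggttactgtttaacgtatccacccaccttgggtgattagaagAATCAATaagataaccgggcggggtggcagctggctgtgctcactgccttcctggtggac
Foxa1, chr12:57546112-57546361, minus strand: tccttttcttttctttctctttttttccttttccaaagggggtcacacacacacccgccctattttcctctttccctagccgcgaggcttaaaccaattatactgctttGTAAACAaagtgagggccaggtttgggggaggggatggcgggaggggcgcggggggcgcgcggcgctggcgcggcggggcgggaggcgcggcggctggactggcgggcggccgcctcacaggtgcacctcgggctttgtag
Foxa2, farthest upstream start, chr2:148046970-148047219, minus strand: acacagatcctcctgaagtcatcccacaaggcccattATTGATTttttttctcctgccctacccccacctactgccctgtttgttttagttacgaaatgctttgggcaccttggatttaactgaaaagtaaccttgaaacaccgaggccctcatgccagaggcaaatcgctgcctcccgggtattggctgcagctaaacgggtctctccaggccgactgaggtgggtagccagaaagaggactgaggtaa
The ONECUT letters in the upstream Hnf4a window began 60 bases before the start on the reverse strand, and those of Foxa2 began 213 bases before the start on the forward strand. ONECUT1 is known to activate both genes. The Foxa1 window held the FOXA letters 141 bases before the start, on the reverse strand. Of all 32851 mouse windows of this length, 2.61% held the ONECUT letters and 3.17% the FOXA letters. The other 9 windows of the 8 genes held none of the letters searched. No window of the 8 genes held the HNF4A, C/EBP or NR5A2 letters, which occurred in 0.384%, 0.164% and 0.387% of all windows. A match describes letters in a window and is not a binding site measured in these cells.

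None of the 8 factor genes passed the test for a change with irisin. A call needed both a 1.5-fold difference and an adjusted p from limma under 0.05, and 0 of the 10 probes met this, where 12.4% of the 24093 tested probes did. Without the fold requirement the count was still 0, against 24.5% of all tested probes, and at an unadjusted p under 0.05 it was 2, the second Foxa2 probe and Onecut1, against 34.3%. The measured changes ran from -0.40 for Onecut1 to 0.19 for Foxa1 on the log2 scale. The 95% interval of the change lay within 1.5-fold in either direction for 9 of the 10 probes, and for 69.8% of all tested probes. Onecut1 was the exception. In bulk RNA a lower level in every cell and fewer cells with the transcript cannot be told apart.

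All levels below are log2 signals with the 75th percentile of each array set to 0, and each compares a probe only with itself across arrays. That percentile was 472 ± 70.1 (SD, n = 4) units of signal in the control group and 783 ± 71.6 (SD, n = 4) in the irisin group, so the scaling removes a difference in brightness between the groups. After it, 172 probes were called higher and 2816 lower with irisin, 0.714% and 11.7% of those tested, and the median over all tested probes was -0.080. The lower calls lay mostly among dim probes.

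**Figure D1:**
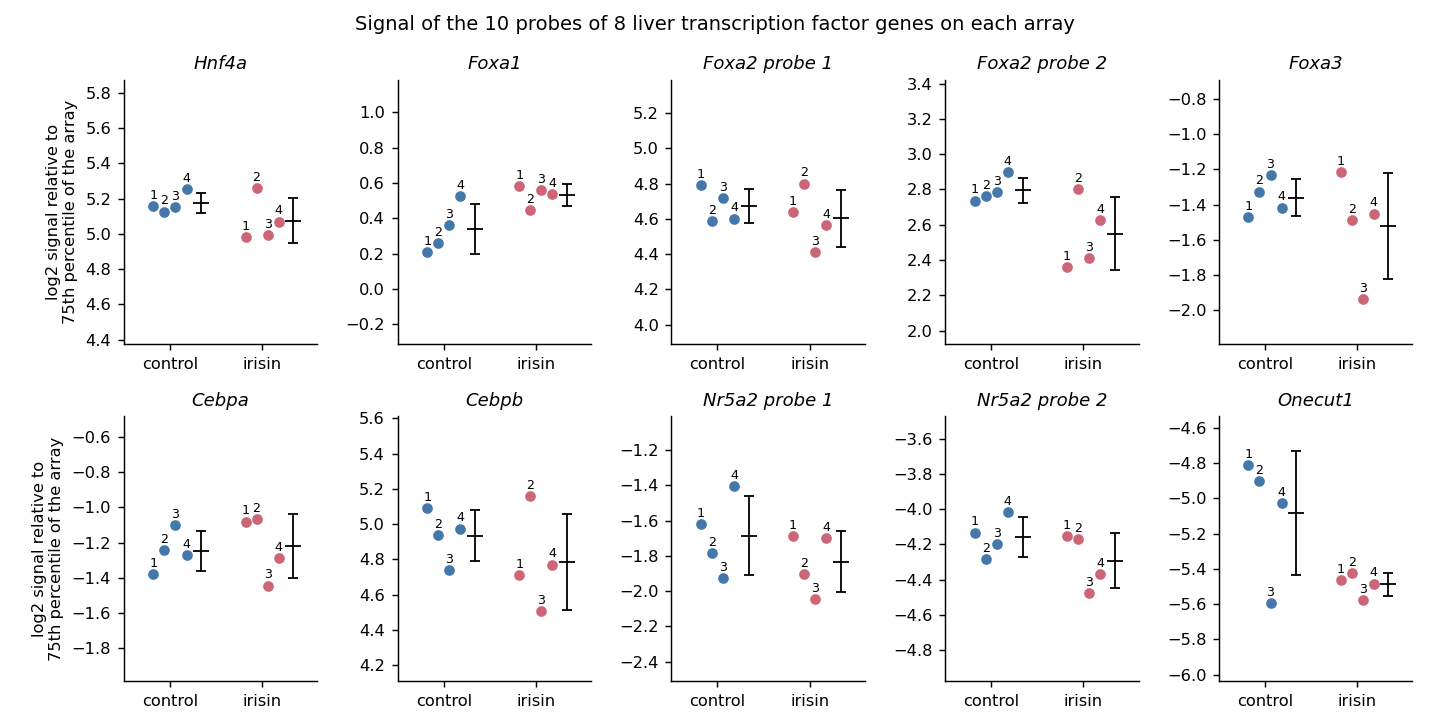
Signal of each of the 10 probes on each array, on the log2 scale with each array's 75th percentile at 0. Points are single arrays labeled with their replicate number, blue for control and red for irisin, and the bar beside each group is its mean ± SD (n = 4). The vertical axes span the same number of log2 units but start at different levels, and the control and irisin points overlap in all 10 panels.

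HNF4A is the nuclear receptor that binds a large part of the genes active in liver and is needed for the synthesis of apolipoproteins and clotting factors. The Hnf4a signal was 5.16, 5.13, 5.15 and 5.26 on control arrays 1 to 4, and 4.98, 5.26, 4.99 and 5.07 on irisin arrays 1 to 4. The control arrays lay close together, and irisin array 2 was about as high as the highest control, so the groups overlapped. The change was -0.097 (SE 0.087), with an adjusted p of 0.491 by limma and an exact two-sided permutation p of 0.229. In fold terms the 95% interval ran from 0.818 to 1.07. Among the 10 probes this was the narrowest interval, 0.193 on the log2 scale to either side.

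NR5A2, also called LRH-1, is an orphan nuclear receptor of bile acid and cholesterol genes. Its first probe gave -1.62, -1.79, -1.93 and -1.41 on the control arrays and -1.69, -1.90, -2.05 and -1.70 on the irisin arrays. Its second probe gave -4.13, -4.28, -4.20 and -4.01 on the control arrays and -4.15, -4.17, -4.48 and -4.37 on the irisin arrays. On both probes control array 4 was the highest of all and irisin array 3 the lowest, and the groups overlapped. The changes were -0.15 (SE 0.13, adjusted p = 0.471 by limma) for the first and -0.13 (SE 0.10, adjusted p = 0.400 by limma) for the second. The difference between the 2 probes within an array moved by -0.014 with irisin (exact two-sided permutation p = 0.857), so both gave nearly the same change. With normexp in place of the scanner's background correction, the change of the second, dimmer probe was -0.46 (adjusted p = 0.000618 by limma), below 1.5-fold, and that of the first was -0.15.

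FOXA1, FOXA2 and FOXA3 are forkhead proteins, and the first and second act as pioneers that let other factors reach liver enhancers. The Foxa1 signal was 0.21, 0.26, 0.36 and 0.53 on the control arrays and 0.58, 0.45, 0.56 and 0.54 on the irisin arrays. Control arrays 1 to 3 lay below every irisin array, while control array 4 lay above irisin array 2. The change of 0.19 (SE 0.090) had an adjusted p of 0.162 by limma and an exact two-sided permutation p of 0.0571. With normexp correction it was 0.27 with an adjusted p of 0.0255, below the fold needed for a call.

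Foxa2 gave 4.79, 4.59, 4.72 and 4.60 on the control arrays and 4.64, 4.80, 4.41 and 4.56 on the irisin arrays with its first, brighter probe. The highest and the lowest values were both on irisin arrays, so the control values lay wholly inside the irisin range. The second probe gave 2.74, 2.76, 2.78 and 2.90 on the control arrays and 2.36, 2.80, 2.41 and 2.63 on the irisin arrays. Here irisin arrays 1, 3 and 4 lay below every control array and irisin array 2 lay among them. The changes were -0.070 (SE 0.099, adjusted p = 0.686 by limma) and -0.25 (SE 0.11, adjusted p = 0.134 by limma). Without irisin array 2 the second probe stood at -0.33 with an adjusted p of 0.0217 by limma, still under 1.5-fold. Without any other single array its adjusted p lay between 0.170 and 0.307 by limma. The 2 probes did not differ from each other beyond the spread, since their difference within an array moved by 0.18 (exact two-sided permutation p = 0.171). The accession of both probes is the same, and where on the transcript each one lies was not examined.

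Foxa3, a family member abundant in adult liver, gave -1.47, -1.33, -1.23 and -1.42 on the control arrays and -1.22, -1.49, -1.94 and -1.45 on the irisin arrays. Irisin array 3 was far below the other 7, while irisin array 1 was the highest of all 8. The change was -0.16 (SE 0.14, adjusted p = 0.474 by limma). Without irisin array 3 it was -0.023.

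C/EBPα and C/EBPβ are leucine zipper proteins. The first favors the resting, metabolic hepatocyte, and the second rises in the acute-phase response and in regeneration. Cebpa gave -1.38, -1.24, -1.10 and -1.27 on the control arrays and -1.08, -1.07, -1.44 and -1.29 on the irisin arrays. Irisin arrays 1 and 2 were the highest and irisin array 3 was the lowest, on either side of the controls. Its change of 0.029 (SE 0.11, adjusted p = 0.888 by limma) was the smallest in size of the 10, with a 95% interval from 0.866-fold to 1.20-fold. Cebpb gave 5.09, 4.94, 4.74 and 4.98 on the control arrays and 4.71, 5.16, 4.51 and 4.77 on the irisin arrays. Irisin array 2 was again the highest of all and irisin array 3 the lowest. Its change was -0.15 (SE 0.14, adjusted p = 0.504 by limma), with an interval from 0.731-fold to 1.11-fold.

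ONECUT1, also called HNF6, is a cut-homeodomain factor that acts early in liver and bile duct development. Onecut1 gave -4.81, -4.90, -5.60 and -5.03 on the control arrays and -5.46, -5.42, -5.58 and -5.48 on the irisin arrays. Control arrays 1, 2 and 4 were above every irisin array, and control array 3 was the lowest of all 8. The change was -0.40 (SE 0.15), with an adjusted p of 0.084 by limma and an exact two-sided permutation p of 0.143. The 95% interval, 0.598-fold to 0.956-fold, was the widest of the 10 on the log2 scale. Without control array 3 the change was -0.57 with an adjusted p of 0.00214 by limma, and with normexp correction it was -0.57 with an adjusted p of 0.000293. Both are just under the 1.5-fold needed for a call. With quantile normalization the change was -0.036 (adjusted p = 0.904 by limma), and with cyclic loess 0.0044 (adjusted p = 0.989 by limma). Leaving out each array in turn gave changes from -0.57 to -0.31, with adjusted p from 0.00214 to 0.211 by limma. The probe is dim, with an unscaled signal of 13.9 ± 2.29 (SD, n = 4) units for control and 17.4 ± 1.37 (SD, n = 4) for irisin. In its signal decile, decile 2 when decile 1 holds the dimmest tested probes, the median of all probes was -0.33.

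**Figure D2:**
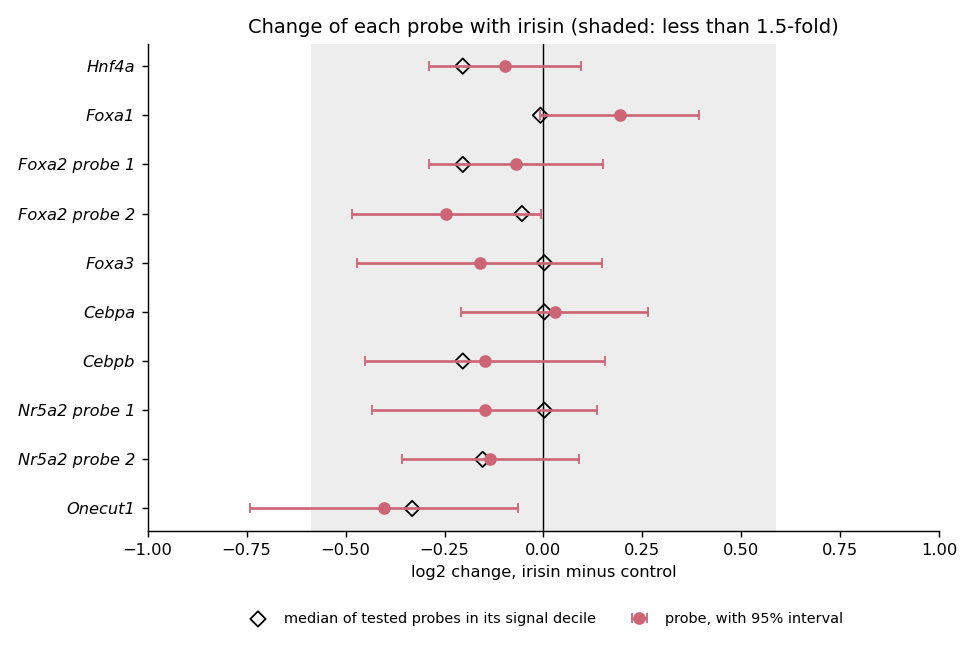
Change of each of the 10 probes with irisin, as the log2 difference irisin minus control with its 95% interval from the limma fit on 8 arrays. The shaded band marks less than 1.5-fold, the open diamonds mark the median change of all tested probes in the same signal decile, and only the interval of Onecut1 leaves the band.

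The ranks of the irisin arrays were compared over the 10 probes, of which Foxa2 and Nr5a2 give 2 each. Irisin array 3 was the lowest of the 4 irisin arrays for 7 of the 10 probes, where it was the lowest for 32.5% of all tested probes. Irisin array 2 was the highest for 6 of the 10, near its share of 47.4% over all tested probes. Leaving out irisin array 3 brought the median change of the 10 probes from -0.14 to -0.062, and that of all tested probes to -0.065. The control and irisin values overlapped for every one of the 10 probes, while 27.2% of tested probes had groups that did not overlap.

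The change of a probe varied with how bright it was, and the members lay in deciles 2, 3, 5, 7, 9 and 10. Over all tested probes the median change was -0.51 in decile 1, where 46.0% were called, 0.0021 in decile 5 and -0.20 in decile 10, where 2.24% were called. Hnf4a, Cebpb and the brighter Foxa2 probe fell in decile 10, and their changes of -0.097, -0.15 and -0.070 lay above that decile's median. Foxa1, in decile 7, lay 0.20 above the median of its decile, and the second Foxa2 probe, in decile 9, lay 0.19 below. Counted over the 10 probes, 6 lay above the median of their decile and 4 below. Taken without regard to brightness, 8 of the 10 changes were below 0, as were 65.2% of all tested probes, and the median of the 10 was -0.14.

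**Figure D3:**
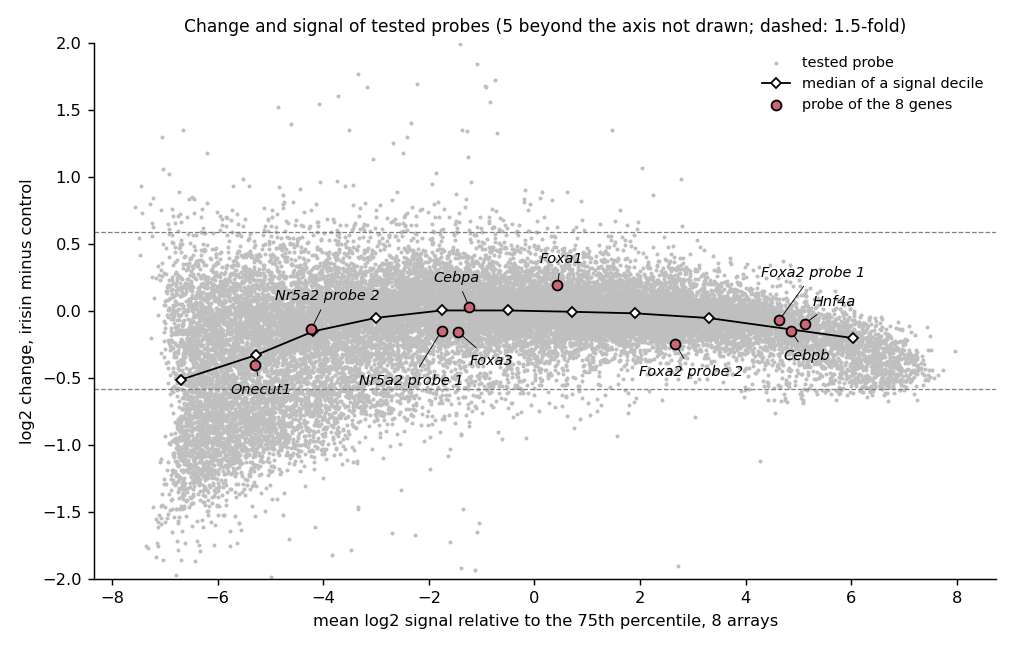
Log2 change, irisin minus control, against the mean log2 signal of the 8 arrays for all tested probes (grey) and the 10 probes of the 8 genes (red). Open diamonds joined by a line give the median change in each signal decile, from -0.51 in the dimmest to -0.20 in the brightest, and dashed lines mark 1.5-fold.

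The direction of most members followed the way the arrays were brought to one scale. With quantile normalization the Hnf4a change was 0.084, that of the brighter Foxa2 probe 0.067 and that of the second Nr5a2 probe 0.081, with none of the 10 probes called. Without any scaling 7 of the 10 probes were called, all higher with irisin, where 61.9% of all tested probes were called higher and the median over them was 0.66. With scaling to spike-in probes the Foxa1 change was 0.77 and the Cebpa change 0.60, and these were the 2 probes called, where 32.4% of all tested probes were called higher and the median was 0.50. Relative to the median of all probes, the median of the 10 stayed between -0.061 and 0.053 under all 7 ways shown in the plot of the processing settings. Foxa1 lay above 0 and above the median of all probes under each of them.

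**Figure D4:**
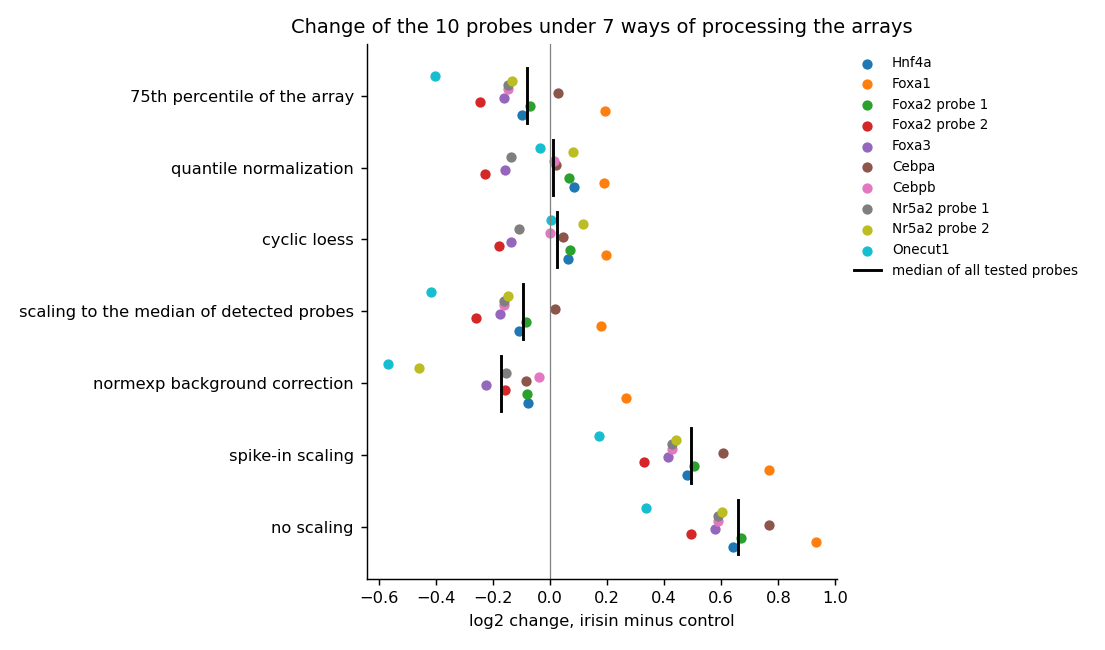
Log2 change, irisin minus control, of the 10 probes (colored points) under 7 ways of processing the arrays, one per line, with the median change of all tested probes as a black bar. The bar stands at -0.080 for the 75th percentile and at 0.66 with no scaling. Using spike-in probes, or leaving the scaling out, shifts each point by nearly the same amount as the bar. Under quantile normalization and cyclic loess the points shift by unequal amounts. From the 75th percentile to quantile normalization Foxa1 stays at 0.19, while Onecut1 goes from -0.40 to -0.036. With normexp correction the bar stands at -0.17 and the median of the 10 at -0.12, beside -0.14 for the 75th percentile.

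Factors that work with these 8 were mostly not called either. Of 18 other liver transcription factor genes, 17 were tested, 0 were called higher and 1 lower, where 10.7% of the 14312 tested genes were called, 0.531% higher and 10.2% lower. Their median change was -0.037, beside -0.064 for all tested genes. Nr0b2, which encodes the small heterodimer partner that represses NR5A2 and HNF4A on bile acid genes, was the one called. It gave -5.90, -6.13, -5.83 and -5.94 on the control arrays and -6.77, -6.69, -6.63 and -6.89 on the irisin arrays, all 4 irisin arrays below all controls. Its fall of 0.79 (SE 0.095, adjusted p = 0.000241 by limma) was among the dimmest probes, in decile 1, and was -0.25 with quantile normalization (adjusted p = 0.107), where it was not called. Without scaling the Nr0b2 change was -0.057. Cebpg, a C/EBP protein without an activation domain, had a change of 0.23 (SE 0.072, adjusted p = 0.0423 by limma), with all 4 irisin arrays above all controls but a fold too small for a call. The bile acid receptor gene Nr1h4 had a change of -0.20 (SE 0.074, adjusted p = 0.0747 by limma).

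Genes known to be bound or driven by the 8 factors were compared next, each by its brightest tested probe. Of 48 listed targets, 37 were tested, 2 were called higher and 4 lower, and their median change was -0.0087. Over all tested genes 0.531% were called higher and 10.2% lower. Of the HNF4A targets 13 were tested, with 0 called higher and 2 lower. Of the FOXA targets 10 were tested, with 0 higher and 2 lower, and of the C/EBP targets 14, with 2 higher and 2 lower. Of the NR5A2 targets 5 were tested, with 0 higher and 1 lower, and of the ONECUT1 targets 5, which include Hnf4a and Foxa2 themselves, with 0 called. The list medians were -0.048, 0.020, 0.011, -0.15 and -0.063 in that order. A gene may stand in several lists. The lists were drawn up with earlier results of these data known, so these counts are descriptive and give no independent support.

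The 2 called higher were Lcn2 and Saa3, both acute-phase genes of the C/EBP list. Whether C/EBP proteins had a part in their change was not tested. Lcn2, the secreted iron-binding protein lipocalin-2, gave 0.53, 0.56, 1.15 and 0.97 on the control arrays and 1.99, 2.13, 2.11 and 2.36 on the irisin arrays. Saa3, serum amyloid A3, gave -1.58, -1.70, -1.26 and -0.99 on the control arrays and -0.094, 0.059, -0.29 and 0.10 on the irisin arrays. Every irisin array lay above every control array for both. The rises were 1.35 (SE 0.15, adjusted p = 0.000169 by limma) and 1.33 (SE 0.16, adjusted p = 0.000225 by limma), and both genes were called under every alternative that was run. Other acute-phase targets of the same list did not reach a call. Haptoglobin (Hp) had a change of 0.47 (adjusted p = 0.0845), fibrinogen α (Fga) of 0.50 (adjusted p = 0.00380), hepcidin (Hamp) of 0.38 (adjusted p = 0.0201), and Orm1, Orm2, Hpx and C3 lay between -0.19 and -0.0087, all by limma.

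The 4 called lower were F9, Nr0b2, Tat and G6pc. F9, clotting factor IX and an HNF4A target, gave -3.43, -3.49, -3.37 and -3.26 on the control arrays and -4.70, -4.72, -4.64 and -4.49 on the irisin arrays. Its fall of 1.25 (SE 0.087, adjusted p = 6.79e-05 by limma) was the largest of the 37 tested targets. F9 was still called with quantile normalization at -1.06, with cyclic loess at -1.03 and with spike-in scaling at -0.67. By the one-way test of the methods it had an adjusted p of 0.00183 and was also called. Without scaling its change was -0.51, under the fold needed. Tat, tyrosine aminotransferase, gave -3.86, -4.11, -3.98 and -3.78 on the control arrays and -4.72, -4.52, -4.86 and -4.70 on the irisin arrays. G6pc, the last enzyme of glucose release, gave -5.73, -5.51, -5.31 and -5.47 on the control arrays and -6.63, -6.47, -5.93 and -5.90 on the irisin arrays. In each of these genes all 4 irisin arrays lay below all 4 controls. The falls were 0.77 for Tat (adjusted p = 0.000404) and 0.73 for G6pc (adjusted p = 0.00952), both by limma. By the one-way test of the methods G6pc had an adjusted p of 0.0550 and was not called. With quantile normalization Tat and G6pc stood at -0.54 and -0.27, neither of them called. Without scaling Nr0b2, Tat and G6pc stood at -0.057, -0.032 and 0.010, and none was called. With spike-in scaling they stood at -0.22, -0.19 and -0.15, again with none called. Nr0b2 and G6pc lay in signal decile 1, where 45.2% of all tested probes were called lower and the median change was -0.51. F9 and Tat lay in decile 3, where 19.6% were called lower and the median was -0.15. The part of the fall shared by dim probes was not tested. Among targets in deciles 9 and 10, the changes were 0.11 (SE 0.10) for Alb and -0.049 (SE 0.095) for Ttr. The glucose transporter gene Slc2a2 stood at -0.0066 (SE 0.082). Hp stood at 0.47, Apob at 0.24 and Cpt1a at 0.046, and Hpx, Cebpd and C3 at -0.032, -0.063 and -0.19. None of these targets was called. Apoa2, an HNF4A target, had a change of -0.42 (SE 0.079, adjusted p = 0.00280 by limma), short of 1.5-fold.

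**Figure D5:**
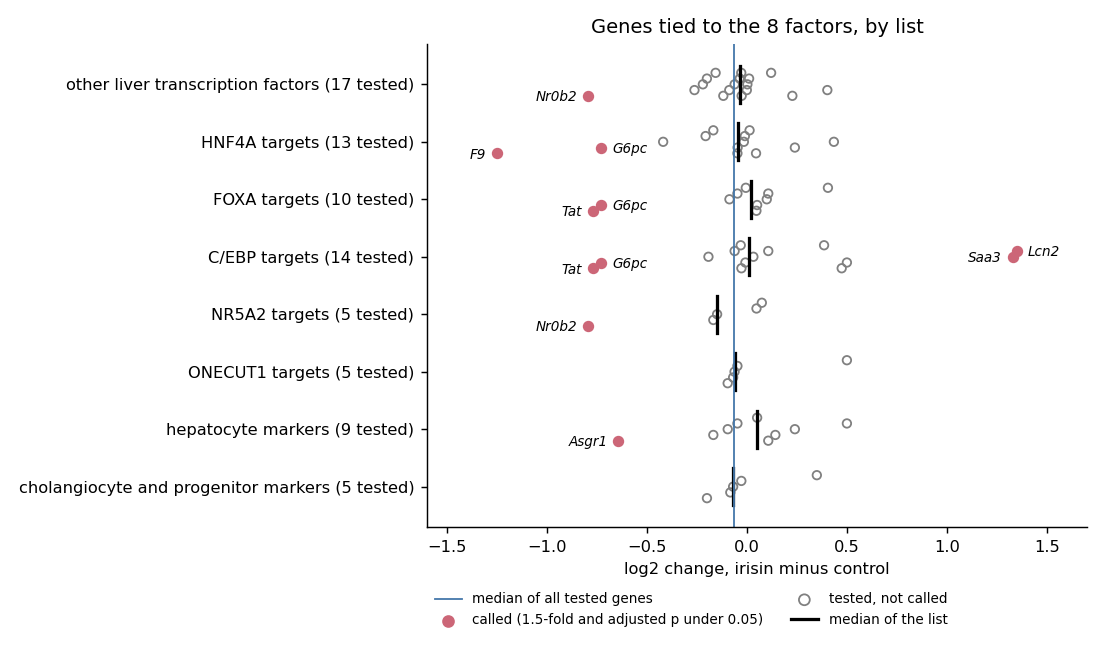
Log2 change, irisin minus control, of each tested gene (brightest probe) in the lists of liver transcription factors, of targets of the 8 factors, and of cell type markers. Filled red points are genes called at 1.5-fold with adjusted p under 0.05 and are named, open points are genes not called, short black bars are list medians and the blue line is the median of all tested genes, -0.064.

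Markers of both hepatocytes and bile duct cells were detected in these cells. Of 12 hepatocyte markers 9 were tested, with 0 called higher and 1 lower, where 0.531% and 10.2% of all tested genes were. The gene called was the receptor gene Asgr1 at -0.64 (SE 0.078, adjusted p = 0.000259 by limma). It lay in decile 3, where 19.6% of all tested probes were called lower, and its second probe was not tested. The albumin and transthyretin probes lay in decile 10, those of Apob and Serpina1a in decile 9 and that of Fgb in decile 6. Apoa1 and Ahsg lay in decile 4, and Fga, like Asgr1, in decile 3. The urea cycle gene Cps1 was well above background on only 1 array of each group. Apoa1, the main protein of high-density lipoprotein, had a change of -0.17 (SE 0.10) and was not called. The bile duct keratin gene Krt19 also lay in decile 10, at 5.27, 5.20, 5.47 and 5.37 on the control arrays and 5.14, 5.36, 5.28 and 5.26 on the irisin arrays, with a change of -0.070 (SE 0.089). Of 7 cholangiocyte and progenitor markers 5 were tested and none was called. The summed signal of the tested hepatocyte markers, before scaling, ran from 31590 to 50270.1 on control arrays and from 59509 to 76417 on irisin arrays. That of the cholangiocyte and progenitor markers ran from 32165 to 51201 and from 57013 to 74877. These sums, and those of other cell types below, include the brightness difference between the groups, with 75th percentiles of 472 and 783. After scaling, the median change was 0.050 for the hepatocyte markers and -0.070 for the cholangiocyte and progenitor markers.

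Few markers of other liver cells were detected. Of 8 stellate and fibroblast markers 3 were tested, with a summed signal of 50.7 to 57.1 on control arrays and 49.1 to 66.1 on irisin arrays. Col1a2, in decile 3, and Acta2, in decile 2, were called lower, at -1.08 and -0.68, and Col1a1 stood at 0.0064. In these deciles 19.6% and 34.3% of all tested probes were called lower. Of 6 endothelial markers 2 were tested, summing to 277.7 to 411.5 and to 322.8 to 461.4, and Pecam1, in decile 2, was called lower at -0.61. With quantile normalization Asgr1, Acta2 and Pecam1 were not called, at -0.35, -0.28 and -0.32, and Pecam1 was not called without control array 4, at -0.52, or without irisin array 1, at -0.55. Of 7 macrophage and leukocyte markers 2 were tested and none was called, with sums of 189 to 305.6 and 354.5 to 386.6. The leukocyte gene Ptprc was well above background on 2 control and 3 irisin arrays and was not tested. The part of any of these markers in the results above was not tested.

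Genes whose pattern over the 8 arrays lay closest to each factor were found among 13706 genes that were well above background on every array. Closeness was the root mean square difference of 2 log2 profiles after each was centered on its own mean. Closest to Hnf4a were Fam168b, Camk2g and Rab3ip, at 0.022, 0.023 and 0.028, where the median gene stood at 0.16. Closest to Foxa1 were Zfp36l1, Zscan29 and Kctd18, at 0.042, 0.046 and 0.049 (median gene 0.22). Foxa2, by its brighter probe, lay closest to Hax1, Arf1 and Fabp5, at 0.025, 0.031 and 0.035 (median gene 0.18). None of these 9 genes belongs to the lists above. The Foxa3 profile was nearest to Prcc, Lbp and Ttyh2, at 0.065, 0.066 and 0.077 (median gene 0.25). For Cebpa they were Dvl2, Rpl7l1 and Wdr54, at 0.043, 0.047 and 0.052 (median gene 0.19), and for Cebpb Tesc, Abhd17c and Tsen34, at 0.041, 0.049 and 0.049 (median gene 0.23). Nr5a2, by its first probe, was nearest to Dppa5a, Gm7904 and Ankle2, at 0.081, 0.084 and 0.084 (median gene 0.24). Onecut1 had the least close neighbors, Dnah6, Adgrg2 and Utp14a, at 0.091, 0.10 and 0.10 (median gene 0.32). These profiles share arrays, slides and scaling, and closeness over 8 arrays is a description.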

How the data were processed

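Gene expression of AML12 cells was measured in 4 control and 4 irisin samples, grouped by the deposited labels, with 1 one-color Agilent array each. The authors extracted spot values with Agilent Feature Extraction 12.0.3.1. Background and spatial trends were removed by that program, and the authors deposited signal intensity on a linear scale without scaling between arrays. The deposited value table equals the mean of these values to within 0.000500%. The file headers name array design 026655, which differs from the design number in the methods, and build mm9. Probe positions were therefore not printed.

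Of each array, 43020 spots that are not controls were read, spots marked as outliers (0.221% to 0.463%) were left out, and spots of one probe were averaged. The log2 of each array's 75th percentile was subtracted from the log2 intensity. RefSeq accessions of GRCm38.p6 gave the gene names, and matched 72.7% of probes. Tests were run on probes that were well above background throughout at least 1 group. In R 4.3.3, lmFit and eBayes of limma 3.58.1 were run with Benjamini-Hochberg adjustment over all tested probes, in place of the one-way analysis of variance of the methods, whose thresholds of 1.5-fold and 0.05 were kept. Genes with several probes were represented by the brightest tested one. Single members were also tested with the exact two-sided permutation test over 70 assignments, whose smallest p is 0.0286. In limma, 10.3 residual and prior degrees of freedom gave the intervals.

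The number of arrays limits the precision: the 95% intervals of the 10 probes reached 0.193 to 0.339 to either side on the log2 scale. Between 59.5% and 64.0% of probes were well above background on an array. Negative control spots averaged 18.2 units before background subtraction on control arrays and 19.5 on irisin arrays.

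Named in the text are all probes of the 8 genes, called genes of the lists, 3 genes closest in pattern to each member, and the markers Alb, Ttr, Apoa1, Krt19, Col1a1, Pecam1 and Ptprc. Other genes were chosen after their values were seen. The lists were drawn up from textbook knowledge, and the 8 genes and the lists were chosen with earlier results of these data known. Some genes of the lists are not reported here and were left out of the counts. The listed symbols Tf and Serpina1b matched no probe.

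The alternatives were normexp background correction (offset 50), quantile normalization, cyclic loess, scaling to the median of detected probes or to 8 spike-in probes, no scaling, the deposited value table, no filter or a filter on all 8 arrays, outlier spots kept, robust eBayes with an intensity trend, a block for the replicate number, each array left out, the adjusted p alone, the one-way test of the methods, and averaging all tested probes of a gene. Normexp used the median spot signal, and its parameters were estimated from spots without outlier marks. The fit was tested on simulated data for irisin against control. Of 200 probes changed by 1 on the log2 scale among 24023, 86.5% were recovered and 4 unchanged probes were called. Files were read with pandas 2.3.3 and plots drawn with matplotlib 3.10.9 in Python 3.11.15.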

Additional observations from a re-analysis of the deposited data

How the results depend on the processing

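Of the 10 probes, 0 were called under the main setting and under each alternative run for them except 2. Averaging the probes of a gene was run only for the lists. With spike-in scaling 2 were called and with no scaling 7, all higher, where 33.9% and 62.6% of all tested probes were called and their medians were 0.50 and 0.66. In these 2 settings the other liver transcription factors called were 4 and 12 and the target genes called were 18 and 29. With no filter on dim probes 11 targets were called, where 32.8% of all probes were called, and by the adjusted p alone 2 other factors were called. With quantile normalization and with cyclic loess Nr0b2 was not called and 1 other factor was called higher, and 5 targets were called higher and 1 lower. Over all probes quantile normalization called 670 higher and 1021 lower, cyclic loess 699 and 926, normexp 54 and 3757, and no filter 184 and 12750.

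With spike-in scaling the changes of Hnf4a, both Foxa2 probes, Foxa3, Cebpb, both Nr5a2 probes and Onecut1 turned from below to above 0, at 0.48, 0.51, 0.33, 0.41, 0.43, 0.43, 0.44 and 0.17. With no scaling they stood at 0.64, 0.67, 0.49, 0.58, 0.59, 0.59, 0.60 and 0.33. Foxa1 and Cebpa, which were not called, were called at 0.77 and 0.60 with spike-in scaling and at 0.93 and 0.77 with no scaling. With quantile normalization Hnf4a, the first Foxa2 probe, Cebpb and the second Nr5a2 probe stood at 0.084, 0.067, 0.014 and 0.081, and with cyclic loess at 0.063, 0.069, 9.6e-05 and 0.12, where Onecut1 stood at 0.0044. Cebpa turned to -0.085 with normexp. Among list genes, no scaling turned G6pc, Asgr1, Acta2 and Pecam1 to 0.010, 0.094, 0.059 and 0.13. The cause was not tested.

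Leaving out each array in turn gave 0 called probes throughout, 1 other factor and 6 to 7 targets. The Cebpa change ran from -0.023 to 0.10. Over all probes the higher calls ran from 103 without irisin array 3 to 353 without irisin array 2.

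Samples with the same number in both groups did not deviate together (r = 0.11, -0.35, -0.13 and 0.17 for replicates 1 to 4), so they were not treated as pairs. With the replicate block 0 of the 10 probes, 1 other factor and 6 targets were called, and over all probes 173 higher and 2832 lower, beside 172 and 2816 without the block. The Onecut1 change had an adjusted p of 0.0537 with the block.

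With the 75th percentile scaling, 9 of the 10 intervals lay within 1.5-fold. It was not so with spike-in scaling or no scaling, where 2 and 7 changes passed 1.5-fold. With normexp the dim Onecut1 and second Nr5a2 probes stood at -0.57 and -0.46, beside -0.40 and -0.13.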
